A study of Mus musculus with 14 samples.

Results

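Undifferentiated mouse embryonic stem cells (ESCs) without the transcription factor Zfp281 were compared with ESCs that have it, in 4 of the 14 RNA libraries of the series. The members were taken by label alone: KO2.6 and KO3.34 (both labelled as Zfp281 knockouts) formed the null group, and WT3 and Rescue3.34 formed the Zfp281-present group. Attention was then kept to genes that lay on the same side in all 4 null-against-present pairs of libraries. Of 23174 genes in the deposited table, 13191 passed the filter on low values (at least 1 FPKM in at least 2 of 12 libraries), and 7019 of these had the same sign in the 4 pairs. FPKM is the number of fragments of a transcript, scaled by its length and by the total of the library. The sign condition uses the same values as the differences below and adds no support to them.

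All 4 lines have the strain background 129S1/SVImJ. WT3 (cell line 3+/+) has both copies of Zfp281, KO3.34 (3.34-/-) and KO2.6 (its cell line field reads 2.26-/-, its title 2.6) have none, and Rescue3.34 is labelled as cell line 3.34-/- with Zfp281 put back. The ESCs were kept without feeder cells on gelatin, in medium with 15% serum and 1000 units/mL of leukemia inhibitory factor (LIF), the cytokine that holds mouse ESCs undifferentiated. None of the 4 had been given the retinoic acid and activin A with which the study turned ESCs into extraembryonic endoderm (XEN) cells. Each line was sequenced once at this stage, from poly(A) RNA, and the knockouts are 2 lines and not repeats of 1 line. No label says that cultures were repeated, so the p-values measure only a spread between libraries. That spread was estimated over 12 libraries of these lines, including the later stages described below, and not from the ESC libraries alone. The series asked how Zfp281 bears on the step from ESCs to XEN cells. The same 4 lines were also sequenced at 2 points of that step, passage 1 (cXENp1, after 48 h of 0.01 µM retinoic acid and 10 ng/mL activin A) and passage 3 (cXENp3, after growth on inactivated fibroblast feeder cells at the passage before).

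Zfp281 is a zinc finger protein that binds G-rich DNA near the starts of many genes. In ESCs it is known as a partner of the core pluripotency factors and of enzymes that change chromatin and DNA methylation, among them the NuRD complex, Tet1 and Ehmt1. Its known effects include both activation and repression of target genes, and cells without it are known to respond differently when they leave the undifferentiated state.

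The libraries were first compared with each other and with their labels. WT3 and Rescue3.34 ESCs were the closest pair, with a median absolute log2 difference of 0.15 and 0.72% of the tested genes differing by more than 1 log2 unit. Rescue3.34 was farther from KO3.34, the line named in its label: the median absolute difference was 0.35, and 8.41% of genes differed by more than 1. KO2.6 stood apart from the other 3, with 12.8% of genes beyond 1 log2 unit against KO3.34, 16.3% against WT3 and 19.4% against Rescue3.34. KO2.6 also carries another prefix (XH) in its library description than the other 3 ESC libraries (JH), so line and prefix cannot be told apart for it. Pou5f1, which encodes the pluripotency factor Oct4, was present in all 4 libraries, at 957 and 912 FPKM in WT3 and Rescue3.34 and at 977 and 1312 FPKM in the KO3.34 and KO2.6 lines. Of 11 genes that mark fibroblast feeder cells, the summed level was 17.7 to 20.7 FPKM in the Zfp281-present ESCs and 7.23 to 8.41 FPKM in the null ESCs, with Col3a1 at or under 0.247 FPKM in each. Thy1 made up most of that sum in the Zfp281-present ESCs. With the prefix as a term in the fit, 21 genes were called in place of 260. The part of the other differences in the results below was not tested.

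Zfp281 itself (mm9 chromosome 1, 138521478 to 138526968) was measured at 28.5 FPKM in WT3 and 27.7 in Rescue3.34, against 3.92 in KO3.34, and was listed at 0 in KO2.6. The 2 groups did not overlap, and the order follows the labels. The difference passed the test (limma adjusted p = 0.038) and lost its call in 8 of 14 alternatives, over all of which the adjusted p ranged from 0.00539 to 0.335. It was called at both later stages too (cXENp1, adjusted p = 0.0413, and cXENp3, 0.00319), where the null lines had 0 to 3.96 FPKM over both stages and the Zfp281-present lines 25.1 to 38.6.

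In the comparison of null with present ESCs, 260 of 13191 genes were called at an adjusted p under 0.05, which is 1.97% of the genes tested. Of these, 139 were higher (1.05%) and 121 were lower (0.917%) in the null lines. The same sign in all 4 pairs was far more common, at 53.2% of genes, 25.3% higher and 27.9% lower, and all 260 called genes had it. The median called rise was 1.34 and the median called fall -1.62 on the log2(FPKM + 1) scale, against a median of -0.01 over all tested genes. The null lines did not move by the same amount: KO2.6 was below KO3.34 in 101 of the 121 lower genes and above it in 89 of the 139 higher ones. Over all 13191 tested genes, KO2.6 was below KO3.34 in 7548 and above it in 5487. The count of calls depended strongly on which library was left out: leaving out WT3 gave 1, leaving out Rescue3.34 gave 4, leaving out KO2.6 gave 14 and leaving out KO3.34 gave 1363. It was 2 when the 4 ESC libraries were fitted alone, while 2182 genes then had an unadjusted p under 0.05. The share of higher genes among the calls was 53.5%. It was 42.2% without chromosomes 6 and 14, 63.3% where a mean of 5 FPKM was required and 81% with the prefix in the model. With the 4 ESC libraries alone it was 100%, of only 2 calls. At an unadjusted p under 0.05, 2762 genes (20.9%) differed, 9.79% of all genes higher and 11.1% lower, and the counts of list members at an unadjusted p below stand against these shares.

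Leaving aside genes listed at 0 in a library, the largest rise was that of Vax2, a homeobox gene known for patterning the ventral eye (mm9 chromosome 6, 83642800 to 83688298). Vax2 stood at 0.678 FPKM in WT3 and 0.119 in Rescue3.34, and at 56.7 and 23.5 in the KO3.34 and KO2.6 lines. Both null libraries were far above both others, and KO3.34 was the higher of them. The difference was 4.78 on the log2(FPKM + 1) scale (SE 0.48, limma adjusted p = 0.00392). Over 13 alternative settings its adjusted p lay between 0.00312 and 0.141, and the call was lost in 3: with the 4 ESC libraries alone, without WT3 and without Rescue3.34. Vax2os, a non-coding transcript listed at the same interval as Vax2, was at 0.843 and 0.797 FPKM in WT3 and Rescue3.34 and at 12.4 and 4.56 in KO3.34 and KO2.6. It followed the same order of lines, with a difference of 2.25 (SE 0.40, adjusted p = 0.0318). Since the counting is not stated to use strand, reads from Vax2 and Vax2os cannot be told apart. Of 7 tested genes of the eye and forebrain field, Vax2 was the 1 called, and the list's median was -0.14. Otx2, a head and eye homeobox factor, was at 8.87 and 9.99 FPKM in the present lines and 4.97 and 6.84 in the null lines (adjusted p = 0.459). Rax was under 1 FPKM in all 4 libraries.

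Nkx6-2, a homeobox gene of the ventral neural tube and of oligodendrocytes, was at 7.01 FPKM in WT3 and 4.6 in Rescue3.34, against 31.9 and 67.3 in the KO3.34 and KO2.6 lines. Here KO2.6 was the highest library, and the difference was 2.82 (SE 0.40, adjusted p = 0.0186). Ripply3, a corepressor that works with T-box factors, was at 1.32 and 0.265 FPKM in WT3 and Rescue3.34, and at 4.73 and 25.1 in KO3.34 and KO2.6. Its rise of 2.84 (SE 0.61, adjusted p = 0.0489) lost its call in 10 of 14 alternatives. Hdac2, a histone deacetylase subunit of NuRD, was at 87.1 FPKM in WT3 and 76.6 in Rescue3.34, against 151 and 185 in the KO3.34 and KO2.6 lines. It was the 1 called rise among 23 partners and relatives of Zfp281 (1.02, adjusted p = 0.0468), and the 1 called fall of that list was Zfp281. The list's median was 0.04. Hdac1, the paralog of Hdac2, overlapped between the groups, at 93.2 and 89.7 FPKM in the present lines and 77.8 and 165 in the null lines. Tet1, which oxidizes methylated DNA, was at 33.5 and 34.9 FPKM in the present lines and at 39.96 and 19.4 in the null lines, so that the present lines lay between the null lines.

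**Figure D1:**
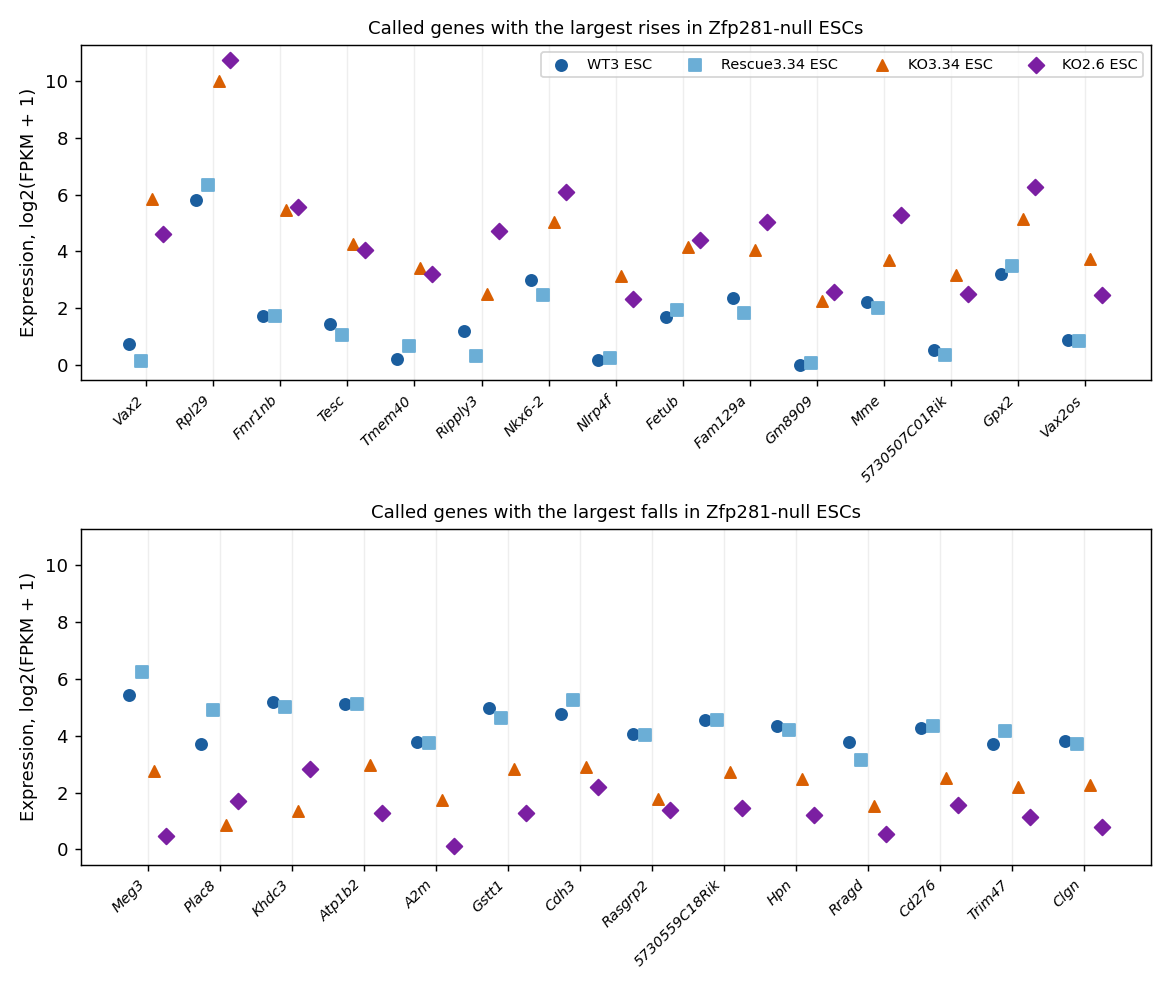
Expression of the called genes with the largest rises (top) and falls (bottom) in each ESC library, on a log2(FPKM + 1) axis, 1 symbol per line. In every gene shown, both null lines lie on 1 side of both Zfp281-present lines, as the selection requires. The largest rise shown is that of Vax2 (4.78) and the largest fall that of Meg3 (-4.22).

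Among the other rises, Fmr1nb, a gene next to Fmr1 on the X chromosome that is known from testis and tumours, gave even values within each group. It stood at 2.35 FPKM in WT3 and 2.32 in Rescue3.34, against 42.6 and 46.4 in the KO3.34 and KO2.6 lines. The null lines were close to each other, and the difference was 3.77 (SE 0.34, adjusted p = 0.00242), with 1 of 14 alternatives losing the call at 0.0517. Tesc, a calcium-binding protein, was at 1.76 and 1.08 FPKM in WT3 and Rescue3.34 and at 18 and 15.6 in KO3.34 and KO2.6 (difference 2.89, adjusted p = 0.0186). Gpx2, a glutathione peroxidase that removes peroxides, was at 8.17 and 10.3 FPKM in WT3 and Rescue3.34 and at 34.5 and 76.1 in KO3.34 and KO2.6. The difference was 2.36 (SE 0.50, adjusted p = 0.0473), and the call was lost in 10 of 14 alternatives. Fetub, which encodes the protease inhibitor fetuin-B, was at 2.24 and 2.83 FPKM in the present lines and at 16.7 and 20.3 in the null lines, both near each other (difference 2.46, adjusted p = 0.0101). Mme, the cell-surface peptidase neprilysin, was at 3.61 and 3.05 FPKM in the present lines and 11.8 and 38.1 in the null lines, with KO2.6 well above KO3.34. The remaining large rises were Tmem40 (2.85), Nlrp4f of the NLR family (2.52), Fam129a (2.43) and 5730507C01Rik (2.37), each under 32 FPKM in every ESC library. Their calls were lost in 7 of 12, 9 of 13, 9 of 14 and 5 of 13 alternatives, and that of Mme in 8 of 14.

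A pair of the large rises have uncertain values. Rpl29, a protein of the large ribosomal subunit, was at 54.9 FPKM in WT3 and 79.2 in Rescue3.34, against 1004 and 1699 in the KO3.34 and KO2.6 lines (difference 4.29, SE 0.39, adjusted p = 0.00242). It has many near-identical copies in the genome, and how reads were divided among them is not given in the sources used here. Rpl29 also differed between the XEN lines of the series, at 1181 FPKM in XENB1 and 79.6 in XEN5. Zfp281 was at 10.6 and 12.5 FPKM in those lines. Gm8909, an MHC class I-like gene, was listed at 0 in WT3 and at 0.0495 FPKM in Rescue3.34, against 3.74 and 4.99 in KO3.34 and KO2.6. It belongs to a multigene family with the same uncertainty. Hsp90ab1, a chaperone that every cell uses, was listed at 0 in both Zfp281-present ESC libraries. It was at 3349 and 3624 FPKM in the KO3.34 and KO2.6 lines. At cXENp1 and cXENp3 it was again listed at 0 in WT3 and Rescue3.34, with 1130 to 2607 FPKM in the null lines. In XENB1 and XEN5 it was at 1718 and 1490 FPKM. An exact 0 can be a failed estimate.

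By the same rule the largest fall was that of Meg3, a non-coding RNA made from the maternal copy of the imprinted Dlk1-Dio3 region (mm9 chromosome 12, 110779206 to 110809939). Imprinting there is known to be unstable in cultured ESCs. Meg3 was at 42.3 FPKM in WT3 and 75.4 in Rescue3.34, and at 5.82 and 0.405 in the KO3.34 and KO2.6 lines. Both null lines were lower, KO2.6 more so. The fall was -4.22 (SE 0.92), and its adjusted p of 0.0499 was just under the threshold. The call was lost in 10 of 14 alternatives, over all of which the adjusted p ranged from 0.0164 to 0.405. Rian, the next non-coding RNA of the region, was at 38.1 FPKM in WT3 and 37.3 in Rescue3.34, against 9.23 and 1.52 in the KO3.34 and KO2.6 lines, the same order, but did not pass (-2.93, adjusted p = 0.138). Begain was at 1.86 and 2.17 FPKM in the present lines and 1.09 and 0.286 in the null lines (adjusted p = 0.104). The paternally expressed Dlk1 was at or under 0.314 FPKM and Dio3 at or under 0.525 FPKM in all 4 libraries. In all, 1 of 5 tested genes of the region was called lower (0.917% of all genes were) and 4 had the same lower sign in every pair (27.9% of all genes did). Of 30 other imprinted genes tested, limma called 0, with a median difference of 0.16 and with 4 higher and 1 lower at an unadjusted p under 0.05. Nnat was the widest of them, at 0.897 and 0.875 FPKM in the present lines and 13.5 and 12.5 in the null lines (2.89, adjusted p = 0.0861), and Gnas the most abundant, at 105 to 154 FPKM.

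Among the further falls, Atp1b2, a beta subunit of the sodium-potassium pump, was at 33.6 FPKM in WT3 and 33.7 in Rescue3.34, against 6.82 and 1.43 in the KO3.34 and KO2.6 lines (-2.99, SE 0.51, adjusted p = 0.0285). Cdh3, the adhesion protein P-cadherin, was at 26.3 and 37.2 FPKM in WT3 and Rescue3.34 and at 6.55 and 3.58 in KO3.34 and KO2.6 (-2.46, SE 0.31, adjusted p = 0.0134). Both genes were lower in either null line, and for both KO2.6 was the lowest. Cd276, the immune ligand B7-H3, was at 18.2 and 19.3 FPKM in the present lines and at 4.66 and 1.92 in the null lines (-2.28, SE 0.29, adjusted p = 0.0134). It kept its call in 11 of 14 alternatives. Hpn, the membrane serine protease hepsin, was at 19.3 and 17.5 FPKM in the present lines and 4.61 and 1.33 in the null lines. Cdh1, the E-cadherin of ESC colonies, was lower in both null lines too, at 92.4 and 77.5 FPKM against 164 and 196, but was not called (adjusted p = 0.11). Of the 16 epithelial and mesenchymal genes tested, limma called 0, with 2 higher and 3 lower at an unadjusted p under 0.05.

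Khdc3, also called Filia and known for a role in genome stability in oocytes and ESCs, was at 35.7 FPKM in WT3 and 30.9 in Rescue3.34, against 1.56 and 6.16 in the KO3.34 and KO2.6 lines. Here KO3.34 was the lowest, and the fall of -3.0 (SE 0.64, adjusted p = 0.0488) lost its call in 11 of 14 alternatives. Plac8, another gene with its lowest value in KO3.34, was at 12 and 29.3 FPKM in the present lines and 0.802 and 2.28 in the null lines (-3.03, adjusted p = 0.0499), and lost its call as often. Among enzymes and signalling proteins, Gstt1, a glutathione transferase, was at 30.1 and 23.7 FPKM in the present lines and 6.07 and 1.45 in the null lines (-2.74, adjusted p = 0.0226). Rragd, a GTPase that reports amino acids to the growth regulator mTORC1, was at 12.6 and 7.82 FPKM in the present lines and 1.91 and 0.446 in the null lines. A2m, Rasgrp2, Trim47 and Clgn fell by 2.85, 2.45, 2.27 and 2.23 on the log2 scale, from 12.1 to 16.8 FPKM in the present lines to between 0.0811 and 3.84 in the null lines. The gene 5730559C18Rik, whose listed start is 0.4114 Mb from that of Zfp281, was at 22.2 FPKM in both present lines and 5.55 and 1.76 in the null lines (-2.45, adjusted p = 0.0399). It lies at 135 to 140 Mb of chromosome 1, where the median difference from WT3 was -0.89 in KO2.6 and -0.03 in KO3.34. These medians are of genes with a mean of at least 5 FPKM, and the part of that shift in the fall was not tested. The call of 5730559C18Rik was lost in 8 of 14 alternatives, that of Trim47 in 8 of 13, that of Hpn in 7 of 14 and those of A2m, Rragd, Rasgrp2 and Clgn in 6 each.

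The promoters of the called genes were searched for GGGGAGGGG, a G-rich sequence known for the human counterpart of Zfp281, on either strand of the 250 bases before to 50 bases after each start in the RefSeq table of build GRCm38.p6. Of the called genes, 118 of 139 higher (84.9%) and 94 of 121 lower ones (77.7%) matched a promoter by symbol or synonym. Of all genes tested 79.7% matched. Because fewer than 80% of the lower genes and of all tested genes had a promoter, a comparison of shares is void, and none is made. The letters occurred in 6.37% of all 32851 promoters of the table. The 250 bases before the start are printed 5′ to 3′ for the leading fall, Meg3 (the first of its listed starts), which does not hold these letters, and for the fall Rasgrp2 (first start) and the rise Tesc, which do, with the letters in capitals. They occur at 2 places in the printed Rasgrp2 sequence and at 1 in that of Tesc. Among Zfp281 and the other genes of the largest called rises and falls, 5730559C18Rik and the second start of Vax2os hold them. Vax2, Rpl29, Ripply3, Atp1b2, Cdh3 and Clgn of this set were not searched. Promoters of genes named for other reasons were not read singly. A match is a description of the sequence and not a measured site.
Meg3, chr12:109540746-109540995, plus strand: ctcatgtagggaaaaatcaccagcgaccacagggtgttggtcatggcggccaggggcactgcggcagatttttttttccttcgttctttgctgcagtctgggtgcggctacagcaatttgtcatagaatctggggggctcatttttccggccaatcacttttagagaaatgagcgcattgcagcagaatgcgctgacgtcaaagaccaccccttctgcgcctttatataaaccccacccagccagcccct
Rasgrp2, chr19:6399625-6399874, plus strand: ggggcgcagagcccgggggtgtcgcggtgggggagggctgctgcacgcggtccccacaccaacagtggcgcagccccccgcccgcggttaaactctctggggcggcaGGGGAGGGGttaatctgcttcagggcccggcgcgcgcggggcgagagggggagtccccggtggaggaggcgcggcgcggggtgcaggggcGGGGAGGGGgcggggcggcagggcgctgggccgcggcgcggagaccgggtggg
Tesc, chr5:118027493-118027742, plus strand: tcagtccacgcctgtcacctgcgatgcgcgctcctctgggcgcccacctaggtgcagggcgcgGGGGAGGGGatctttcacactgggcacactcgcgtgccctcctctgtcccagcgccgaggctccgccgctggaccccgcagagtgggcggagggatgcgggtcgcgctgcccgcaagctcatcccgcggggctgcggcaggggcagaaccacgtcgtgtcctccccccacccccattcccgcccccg

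The called rises were not spread evenly over the genome. Between 70 and 95 Mb of chromosome 6, 37 of 153 tested genes were called higher (24.2%, against 1.05% of all genes) and 0 lower (1 was lower at an unadjusted p under 0.05), and 122 of the 153 (79.7%, against 25.3%) were higher in all 4 pairs. Chromosome 14 held a further 29 called rises among 448 tested genes (6.47%), with 236 (52.7%) higher in all 4 pairs and 1 called fall. Together these regions hold 47.5% of the called rises. On the rest of chromosome 6, 1 of 467 genes was called higher, Tmem40, and outside chromosomes 6 and 14 the share was 0.594% higher and 0.949% lower. The bounds of the chromosome 6 region were set after the values were seen.

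Within these regions many neighbouring genes were higher. Among genes with a mean of at least 5 FPKM, the median difference between null and present ESCs was 1.06 on the log2 scale (2.08-fold) at 70 to 95 Mb of chromosome 6 and 0.60 (1.52-fold) on chromosome 14, against 0 outside these 2 chromosomes. By line, the chromosome 6 region had a median difference from WT3 of 0.91 in KO3.34, 1.09 in KO2.6 and -0.05 in Rescue3.34. On chromosome 14 the 3 values were 0.60, 0.45 and -0.06. Rescue3.34 thus lay with WT3 in both regions, although its cell line label is that of KO3.34. In windows of 5 Mb, the chromosome 6 medians were 0.79 at 65 to 70 Mb, 0.83 at 70 to 75 Mb, 1.09 at 80 to 85 Mb, 1.03 at 85 to 90 Mb and 1.10 at 90 to 95 Mb, and 0.48 at 95 to 100 Mb. The window at 65 to 70 Mb had 0.03 at cXENp1 and -1.08 at cXENp3. Single windows elsewhere also reached 0.79 in ESCs (chromosome 11, 15 to 20 Mb) and 0.74 (chromosome 7, 90 to 95 Mb). Their medians at cXENp1 were 0.13 and -0.05. Vax2 lies inside the chromosome 6 region, and its difference of 4.78 was well above that region's median of 1.06. Tmem40 starts 32.04 Mb from the start of Vax2, where the window median was -0.13. Genes of the region with the smaller, regional size of change include Rab7, a GTPase of late endosomes, at 55.8 and 49.6 FPKM in the present lines and 110 and 162 in the null lines (1.33, adjusted p = 0.0352), and Htra2, a mitochondrial protease, at 10.0 and 8.86 FPKM against 18.2 and 23.6 (1.06, adjusted p = 0.0414). Both were named after their values were seen. DNA copy number was not measured, so for genes inside these regions a change of gene dosage in the null lines and the loss of Zfp281 cannot be told apart.

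**Figure D2:**
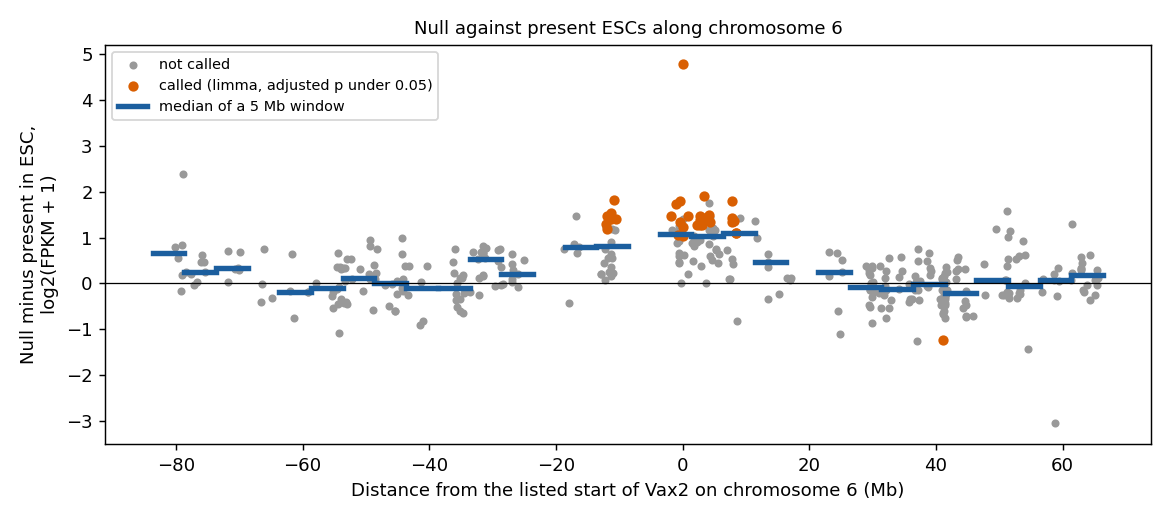
Null minus present difference in ESCs (log2(FPKM + 1) scale) of 391 chromosome 6 genes with a mean of at least 5 FPKM, against their distance in Mb from the listed start of Vax2. Orange points are called genes and blue bars are medians of 5 Mb windows, which lie between 0.83 and 1.10 in the windows holding the orange cluster and near 0 over much of the rest.

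**Figure D3:**
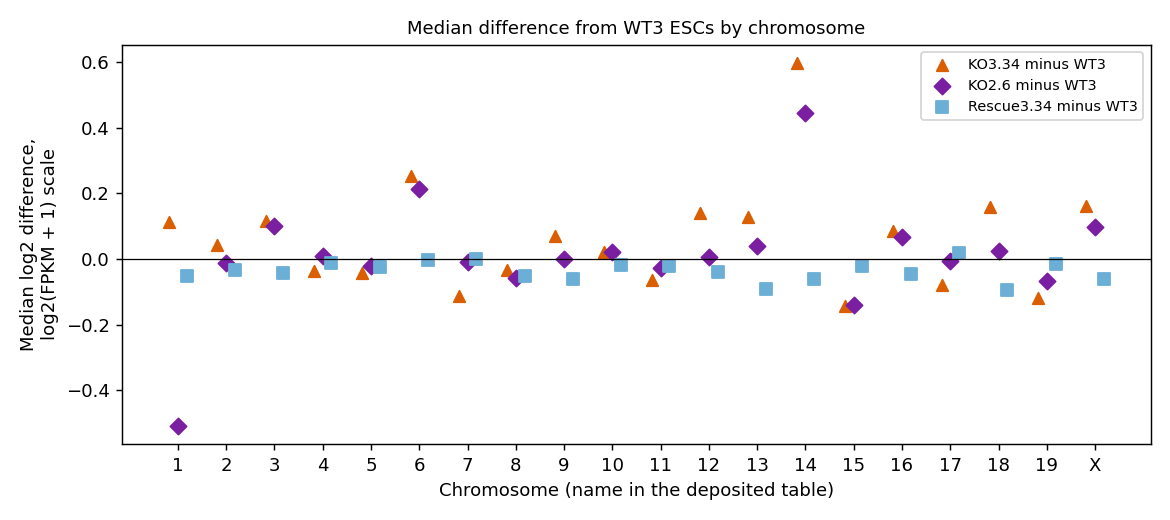
Median log2 difference from WT3 ESCs for each chromosome (genes with a mean of at least 5 FPKM, Y not shown) in KO3.34, KO2.6 and Rescue3.34 ESCs. Chromosome 14 is at 0.60 and 0.45 in the 2 null lines and -0.06 in Rescue3.34, and chromosome 1 is at -0.51 in KO2.6 and at 0.11 in KO3.34.

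When the genes of chromosomes 6 and 14 were left out of the fit, an alternative added after the pattern was seen, 90 genes were called of 12123, of which 42.2% were higher; all 90 are among the 260. Zfp281 then had an adjusted p of 0.0517. Chromosome 1 had a median difference from WT3 of -0.51 in KO2.6, and of 0.11 in KO3.34 and -0.05 in Rescue3.34. Of the 3 Y-linked genes tested, Eif2s3y, a translation initiation factor, was at 91.2 and 43.0 FPKM in the WT3 and Rescue3.34 lines and 2.19 in KO3.34, and was listed at 0 in KO2.6 (adjusted p = 0.0241). Ddx3y was at 19.4, 4.43, 6.36 and 0 FPKM in the same order of lines and Uty at 5.62, 1.13, 0.836 and 0, and neither was called. All 3 genes were listed at 0 in KO2.6, and Rescue3.34 was below WT3 in each. Xist was at or under 0.122 FPKM in all 4 libraries, and Ftx, the 1 tested gene of that list, was at 0.505 to 1.05 FPKM and not called.

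The regional pattern was also read in the later libraries of the same lines. These did not set the bounds of the regions, but they share in the spread and the filter behind the ESC calls. With the ESC libraries fitted alone 2 genes were called in all, and 0 of the called rises lie in these regions. So few calls cannot show a regional share. The chromosome 6 region had a median null minus present difference of 0.98 at cXENp1 and 0.85 at cXENp3, and chromosome 14 had 0.45 and 0.40. Of the 37 ESC rises in the chromosome 6 region, 35 were higher in all 4 pairs at cXENp1 and 30 at cXENp3, and of the 29 on chromosome 14, 27 and 22 were. Of the 73 rises elsewhere the counts were 41 (56.2%) and 39 (53.4%). In ESCs 25.3% of all tested genes were higher in all 4 pairs. That share at the later stages is not given here, so no excess is read from these counts. The median difference from WT3 in Rescue3.34 was 0.05 and -0.06 for the chromosome 6 region at the 2 stages, while it was 0.99 and 0.95 in KO3.34 and 1.10 and 0.93 in KO2.6. These are other libraries of the same 4 lines and not further lines.

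Of all ESC rises, 8 of 139 (5.76%) were also called higher at cXENp1, where 0.364% of all genes were, and 62 (44.6%) at cXENp3, where 22.9% of all genes were. Of the falls, 4 of 121 (3.31%) were called lower at cXENp1 against 0.121% of all genes, and 59 (48.8%) at cXENp3 against 19% of all genes. A further 8 rises and 9 falls were called in the opposite direction at cXENp3. The stages share the same lines and the same estimate of each gene's spread. A gene called in ESCs is therefore favoured for a call later, and no excess is read from these shares. The change in effect was tested as well: limma called 0 of the 260 genes for a different effect between cXENp1 and ESC (0.0379% of all genes were called, and 167 of the 260 had an unadjusted p under 0.05), and 102 (39.2%) between cXENp3 and ESC (22.6% of all genes did). Since the 260 genes were chosen on the ESC differences that this test subtracts, nothing is read from that share. Some genes were called in the same direction at all 3 stages, and they are named here after their values were seen. The rising ones included Gpx2, Rpl29, Fmr1nb, Hsp90ab1, Rab7, Htra2 and Tex261, the last 3 in the chromosome 6 region. The values of Rpl29 and Hsp90ab1 are uncertain, as given above, and nothing is read from their repeat. The falling ones included Zfp281, 2900011O08Rik, Gap43 and Sult5a1. Gpx2 kept the same order with a wider gap at cXENp1, at 0.247 FPKM in WT3 and 1.42 in Rescue3.34 against 25.9 in KO3.34 with 39.97 in KO2.6. Gap43, a growth protein of axons, was at 6.22 and 4.11 FPKM in WT3 and Rescue3.34 ESCs and 0.211 and 0.493 in KO3.34 and KO2.6 ESCs.

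The values of Vax2 and Meg3 lay closer together later, and of these the change in effect was called for Vax2. Both genes were named for large ESC differences, which the test of a change in effect subtracts. A smaller later effect is favoured by that choice, and nothing is read from these changes. Vax2 was at 3.5 and 0.77 FPKM in WT3 and Rescue3.34 at cXENp1 and at 3.04 and 2.63 in KO3.34 and KO2.6, so that the groups overlapped. At cXENp3 it was at 1.74 and 1.8 FPKM against 3.34 and 4.21 (0.78, adjusted p = 0.214), and its effect there was lower than in ESCs (a change of -4.0 on the log2 scale, adjusted p = 0.00604). Meg3 was at 26.0 and 5.22 FPKM in WT3 and Rescue3.34 at cXENp1 and at 5.66 and 0.796 in KO3.34 and KO2.6, which overlap too. At cXENp3 it was at 7.0 and 14.3 against 6.19 and 2.36 (-1.17, adjusted p = 0.33), and the change in its effect did not pass (3.05, adjusted p = 0.113). Khdc3 and Atp1b2 were called lower at cXENp3 too (adjusted p = 0.00155 and 0.000766). Khdc3 was at 31.4 and 15.8 FPKM in WT3 and Rescue3.34 and at 1.37 and 0 in KO3.34 and KO2.6, and Atp1b2 at 24.3 and 10.5 against 0.533 and 0.299.

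**Figure D4:**
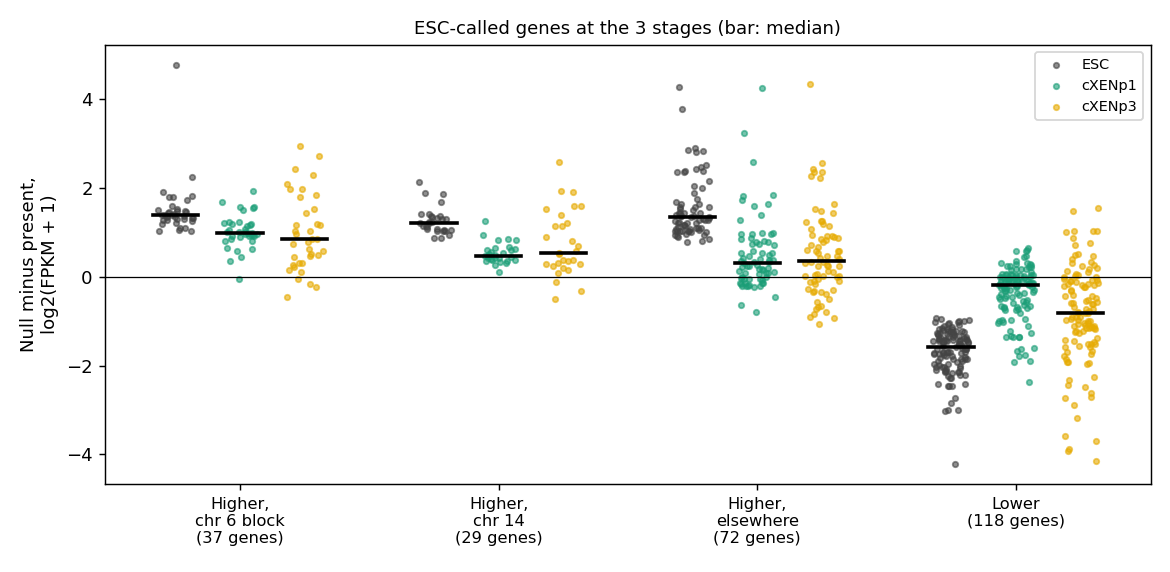
Null minus present difference (log2(FPKM + 1) scale) of the ESC-called genes in ESCs, at cXENp1 and at cXENp3, split into rises in the chromosome 6 region, on chromosome 14 and elsewhere, and falls. Each point is a gene, genes listed at 0 beside high values are left out and bars are medians. The ESC points lie off 0 because these values chose the genes, and the later libraries entered the choice through the shared spread and the filter, not through their own differences.

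The pluripotency genes were read next. Of 14 core and general pluripotency genes, limma called 0 (median 0.15), with 0 higher and 2 lower at an unadjusted p under 0.05. In all 4 pairs 4 were higher and 5 lower, against 25.3% and 27.9% of all genes tested. Of 14 naive pluripotency factors limma called 0 as well (median -0.27), with 1 higher and 2 lower at an unadjusted p under 0.05. Dppa5a, the most abundant, was at 3342 and 3639 FPKM in WT3 and Rescue3.34 and at 6225 and 5136 in KO3.34 and KO2.6 (adjusted p = 0.631). Nanog was at 239 and 271 FPKM in the present lines and 321 and 260 in the null lines, which overlap, and Sox2 was at 521 and 525 against 452 and 261. The lowest adjusted p-values of these lists were those of Klf2, a Krüppel-like factor of the naive state, at 382 and 395 FPKM in the present lines and 124 and 84.4 in the null lines (-1.92, adjusted p = 0.0518), and of Lin28a, an RNA-binding protein, at 120 and 73.8 FPKM against 9.64 and 25.0 (-2.52, adjusted p = 0.0861). Neither passed the test. Zfp42, the ESC marker Rex1, was at 577 and 587 FPKM in the present lines and 352 and 132 in the null lines (adjusted p = 0.231). A missed threshold does not show that levels were equal.

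Genes of the primed epiblast and of Nodal signalling, through which Zfp281 is known to act as cells leave the naive state, were also without a call: 0 of 18 formative and primed genes (median -0.17, 8 lower in all 4 pairs) and 0 of 18 Nodal and activin genes (median 0.08). At an unadjusted p under 0.05, 1 formative gene was higher and 5 were lower, and 1 Nodal gene was higher and 3 were lower. In all 4 pairs 1 formative gene was higher and 8 were lower, against 25.3% and 27.9% of all genes tested. Lefty1, a Nodal inhibitor and target, was at 50.7 FPKM in WT3 and 45.2 in Rescue3.34, against 8.43 and 3.12 in the KO3.34 and KO2.6 lines, with no overlap (-2.97, adjusted p = 0.11). Lefty2 was at 28.3 and 21.8 against 13.8 and 21.4, closer together, and the ligand Nodal itself overlapped between groups, at 21.1 and 30.1 against 23.3 and 32.4. The coreceptor Tdgf1, the most abundant of the list, was at 630 and 502 FPKM in the present lines and 824 and 459 in the null lines. Tcf15, the most abundant formative gene, differed between the null lines, at 47.3 FPKM in KO3.34 and 279 in KO2.6 against 60.4 and 59.6 in the present lines. Cldn6 was at 38.2 and 49.3 FPKM in the present lines and 13 and 11.7 in the null lines (adjusted p = 0.105).

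Markers of extraembryonic endoderm had their highest median in KO2.6. Of 24 tested, limma called 0 (1 was higher at an unadjusted p under 0.05). In all 4 pairs 11 were higher and 2 lower, against 25.3% and 27.9% of all genes tested. The list's median difference from WT3 was 1.30 in KO2.6, 0.23 in KO3.34 and 0.01 in Rescue3.34. The regulator Gata4 was at 0.396 and 0.364 FPKM in WT3 and Rescue3.34, 2.67 in KO3.34 but 12 in KO2.6 (adjusted p = 0.242). Gata6 was at 0.0563 and 0.0639 FPKM in WT3 and Rescue3.34, 0.562 in KO3.34 but 10.5 in KO2.6, and Sox17 reached 4.59 FPKM in KO2.6. Sparc, a matrix protein made in quantity by such cells, was at 37.9 and 30.9 FPKM in the present lines, 49.4 in KO3.34 but 328 in KO2.6. In each of these KO2.6 was the highest library and KO3.34 the second. Apoe, the most abundant of the list, was at 760 and 508 FPKM against 1134 and 1779. In bulk RNA, more cells of a type and more RNA per cell cannot be told apart.

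The remaining lists gave 0 calls in ESCs by limma, and at most 4 of their genes in 1 direction had an unadjusted p under 0.05: mesendoderm (6 tested), trophoblast (12), neural progenitor (8), retinoic acid response (12), germline (16), two-cell-like (12), DNA methylation enzymes (10), WNT (16), FGF and MAPK feedback (17), BMP and ID targets (13), p53 targets (14), the integrated stress response (11), feeder fibroblast (11) and YAP and TEAD targets (12). Their medians of null minus present lay between -0.42 (trophoblast) and 0.36 (FGF and MAPK feedback). Several genes differed more between the null lines than between the groups. Id1, a BMP target, was at 34.1 FPKM in WT3 and 11 in Rescue3.34, against 13.5 and 353 in the KO3.34 and KO2.6 lines. Dnmt3l, the cofactor of the de novo DNA methyltransferases, was at 34.6 and 32.7 FPKM in the present lines, 2.90 in KO3.34 but 105 in KO2.6, the null lines lying on opposite sides. Sox1, a neural progenitor factor, was higher in both null lines at 27.5 and 22.7 FPKM against 6.65 and 3.92, without passing (2.08, adjusted p = 0.141). Tfap2c, the most abundant trophoblast gene, was at 67.7 and 107 FPKM in the present lines, 54.5 in KO3.34 but 1.86 in KO2.6. Stag3, a germline cohesin subunit, was at 42.4 and 41.1 FPKM against 20.4 and 13.1 (adjusted p = 0.085). Crabp1, which binds retinoic acid in the cytoplasm, was at 62.9, 60.6 and 60.1 FPKM in WT3, Rescue3.34 and KO3.34 and 12.6 in KO2.6, and the p53 gene Trp53 was at 312 and 339 FPKM against 169 and 178 (adjusted p = 0.108).

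**Figure D5:**
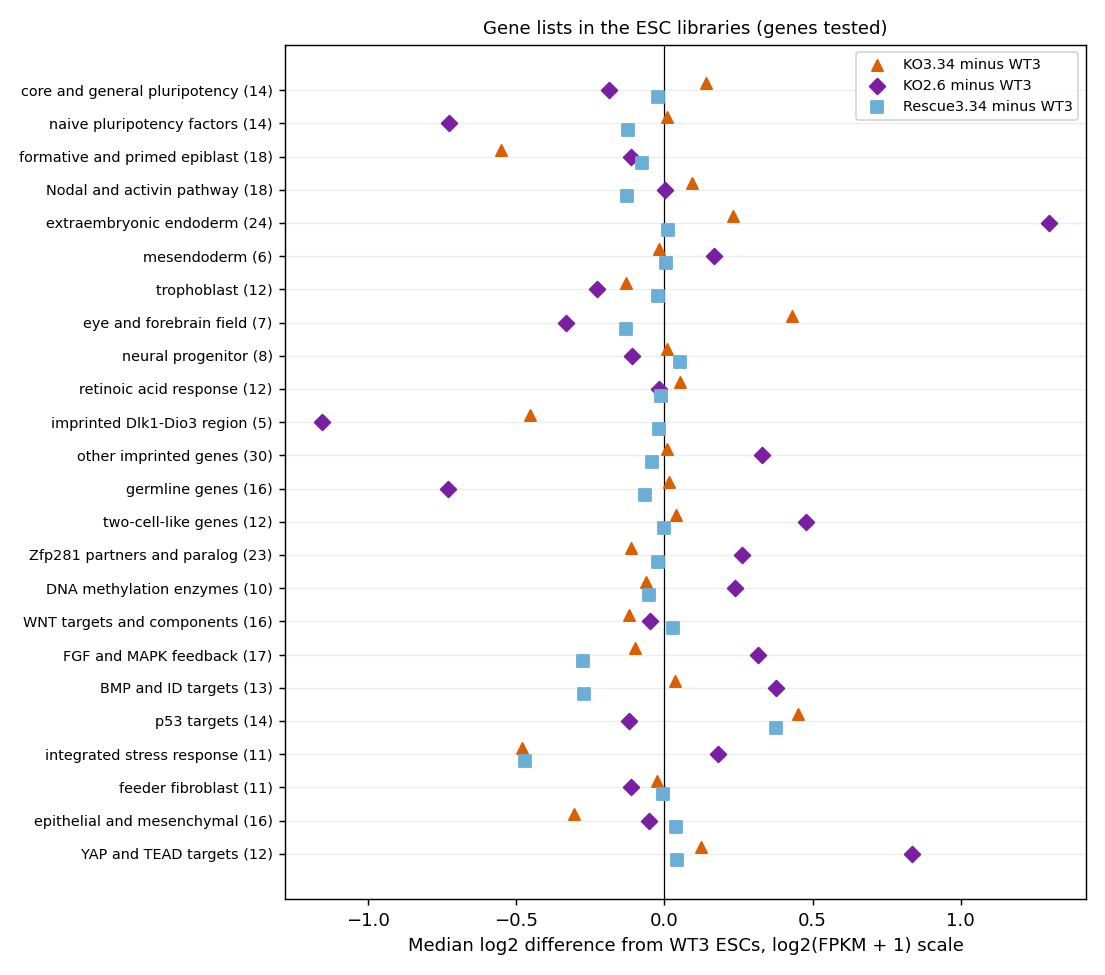
Median log2 difference from WT3 ESCs of each gene list in KO3.34, KO2.6 and Rescue3.34 ESCs (log2(FPKM + 1) scale), with the number of genes tested in brackets and the X and Y lists not shown. The widest distances are those of KO2.6, at 1.30 for extraembryonic endoderm and -1.16 for the Dlk1-Dio3 region, while Rescue3.34 stays between -0.47 and 0.38.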

How the data were processed

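RNA levels of 4 ESC libraries (and of the same lines at cXENp1 and cXENp3) were read from 1 deposited table of FPKM per gene. Per the submitters' processing notes STAR 2.5.3, Cufflinks 2.1.1 and mm9 were used; the roles and the strand setting are not given in the sources used here. The authors deposited FPKM without counts, so the depth of each library is unknown and no counting interval is given. Listed intervals were made 1-based.

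The scale used was log2(FPKM + 1), on which the change of a low gene is understated. limma 3.58.1 in R 4.3.3 (eBayes with trend) was fitted to 12 libraries in 6 groups of 2 (null or present at 3 stages), which share 1 estimate of the spread, for genes with at least 1 FPKM in at least 2 libraries. P-values were adjusted over all genes by the Benjamini-Hochberg method and called under 0.05. The fit was tested on simulated data. Genes named are Zfp281, Vax2, Meg3, the 15 largest called rises and 15 falls with the same sign in 4 pairs, called list genes and the abundant list members; others were named after their values were seen. Genes listed at 0 in 1 ESC library and at 10 FPKM or more in another are given without a fold. The results of some genes, 1 of them selected by the rule, are not reported here. The members, lists and tests were chosen with earlier results of these data known. Alternatives were the pseudocount, the filter, 2 scalings, no trend, a minimum difference, the ESC libraries alone, the description prefix as a term and each ESC library left out. The line as a block for changes in effect was added later: stages of a line share that line, and across genes the difference between the 2 lines of a group correlated between stages at -0.216 to 0.347. Symbols were matched to RefSeq promoters of GRCm38.p6 for sequence only. Figures were drawn with matplotlib 3.10.9.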

Additional observations from a re-analysis of the deposited data

Results flagged for a closer look

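For 12 of the named genes the null minus present difference at cXENp3 was not the same as in ESCs by limma's test of the change in effect (adjusted over all genes, of which 22.6% passed). The genes were chosen for large ESC differences, which this test subtracts, so a smaller difference at cXENp3 is favoured by the choice. On the log2(FPKM + 1) scale the difference was lower at cXENp3 than in ESCs by these changes: Vax2 -4.00, Vax2os -2.70, Tmem40 -2.52, Nkx6-2 -2.03, Rpl29 -2.02, Gm8909 -1.91 and Fetub -1.55, all genes that were higher in null ESCs. Among genes lower in null ESCs the change was upward for Plac8 (4.06), Trim47 (2.23), Rragd (2.1) and Cd276 (1.84), and downward for Clgn (-1.93). Plac8 had 29.5 and 29.4 FPKM in the null lines at cXENp3 against 7.22 in WT3 and 25.8 in Rescue3.34, so that both null lines were then the higher ones. Clgn, an endoplasmic reticulum chaperone, had 0.398 and 0.302 FPKM in the null lines at cXENp3 against 20.9 and 25.5. With the line as a block, Rragd missed the threshold (adjusted p = 0.0603) and the other 11 were called again.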

How the results depend on the processing

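With 2 lines a group, the calls depend on the fit. Of the 31 named genes, 30 lost their call with the ESC libraries alone, 24 with the prefix term, 31 without WT3, 28 without Rescue3.34 and 25 of 30 without KO2.6. Their direction is fixed by the choice of genes with 1 sign in all pairs. The ESC count of 260 (139 higher, 121 lower) was 160 (92, 68) after quantile normalization, 21 (17, 4) with the description prefix as a term, 2 (2, 0) with the 4 ESC libraries alone and 90 (38, 52) without chromosomes 6 and 14; it was within 1.5 times of 260 with another pseudocount, filter, median-ratio scaling, no trend or a minimum difference of 1. Leaving out 1 ESC library gave 1 to 1363 calls, 1 to 531 higher and 0 to 832 lower; the lowest came without WT3 and the highest without KO3.34. ESC calls repeated at cXENp1 (12) were 6 with a pseudocount of 0.1, 7 with a mean of 5 FPKM, 4 with the prefix, 6 without chromosomes 6 and 14 and 1 to 33 with a library left out. Those repeated at cXENp3 (121) were 80 after quantile normalization, 10 with the prefix, 47 without the 2 chromosomes and 1 to 527 with a library left out. ESC calls whose effect differed at cXENp1 (0) were 2 without the filter and 1 with the prefix, and 0 to 75 with a library left out. Those at cXENp3 (102) were 66, 15, 40 and 1 to 629 for quantile normalization, prefix, chromosomes and left-out libraries. The share of rises in the chromosome 6 and 14 regions (47.5%) was 0 with the ESC libraries alone and 0 to 50 with a library left out. With a library left out, the lone ESC library of its group was assumed to vary like the other groups. By their labels KO3.34 and Rescue3.34 share a line number, while WT3 and KO2.6 share none. A fit that pairs null with present lines was not tested. With the line as a block over the 3 stages, added after the data were seen, 1 and 98 of the 260 genes differed in effect at cXENp1 and cXENp3, 94 of the 98 in both fits. Under this block Rragd lost its change in effect (adjusted p = 0.0603) and 5730559C18Rik gained one (0.0164), and the change was called for the other 11 genes listed above in both fits. Depth is unknown, so sampling error at low FPKM cannot be given.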
